A study of Mus musculus with 6 samples.

Results

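The IL-1 family genes examined here were 10 genes of mouse bone marrow-derived eosinophils, chosen by name as the classical IL-1 and IL-18 ligands, the IL-1 receptor antagonist, and the receptor chains for IL-1, IL-33 and IL-18. All 10 were found among the 16254 genes of the deposited count table, and all 10 passed the filter on low counts that left 13498 genes for testing. Eosinophils of C57BL/6 genotype were differentiated in culture from the bone marrow of mice aged 6 to 12 weeks, with FLT3 ligand and stem cell factor followed by IL-5, and treatment began on culture day 12. The sham group received unconditioned medium that had passed through the vesicle isolation in parallel, and the EV group received extracellular vesicles (EVs, membrane particles shed by cells) purified by size exclusion chromatography from activated TH2 cell cultures. Each group held 3 cultures collected after 24 h. The labels name them as biological replicates without saying whether they came from separate mice, so the tests measure the spread between these cultures. All cells had been exposed to IL-5 before treatment, and no library from rested TH2 cell EVs, or from untreated cells, was analysed here.

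IL-1α and IL-1β both bind the receptor IL-1R1, which recruits the accessory chain IL-1RAP and the adaptor MyD88 to activate NF-κB. The family carries its own brakes. The receptor antagonist, encoded by Il1rn, occupies IL-1R1 without recruiting the accessory chain, and the decoy receptor encoded by Il1r2 binds IL-1 but lacks the intracellular signaling domain. IL-33 is sensed by ST2, the product of Il1rl1, which shares the IL-1RAP chain, and IL-18 is sensed by the chains encoded by Il18r1 and Il18rap. Eosinophils, mast cells, basophils and type 2 innate lymphoid cells are known to respond to IL-33 in allergic inflammation. IL-1β and IL-18 are made as precursors that caspase-1 cleaves, so that transcript levels do not give the amount of active cytokine.

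The EV-treated cultures carried more transcript of the antagonist Il1rn, the decoy receptor Il1r2 and the IL-33 receptor Il1rl1 than the sham cultures, by 2.80-fold, 3.86-fold and 4.36-fold. The ligand gene Il1a was 2.02-fold lower in the EV group, whereas Il1b did not pass the test, with 0.094 on the log2 scale (SE 0.262, adjusted p = 0.815). Expression was compared with edgeR's quasi-likelihood test, with Benjamini-Hochberg adjustment over all genes tested, and a gene was called at an adjusted p under 0.01. With this rule 3 of the 10 members were higher and 1 was lower in the EV group, where 12.1% and 11.6% of all genes tested were called in these directions. The 3 members that were called higher also had a log2 fold change of at least 1, and 3.1% of all genes tested met both conditions. In 9 of the 10 members the normalized counts of the groups did not overlap, which held for 49.6% of all genes tested. The median log2 fold change of the members was 0.97, beside -0.014 over all genes tested. In bulk samples, fewer cells of a type and less RNA per cell cannot be told apart, and this holds for each value given here.

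The windows around the start sites of the genes that were called are shown first, because the results turn on these genes. Each window is the RefSeq stretch from 250 bases before to 50 bases after an annotated start in GRCm38.p6, printed 5′ to 3′ on the strand of the gene. Capitals mark matches, on either strand, to short motifs named for STAT factors (TTCNNNGAA), C/EBP factors (TTNNGNAA) and GATA factors (AGATAA), to PU.1 (GAGGAAGT) and to a κB motif named here only. Motif matches can overlap, and a match is a string of letters, not a measured binding site. Of 32851 mouse windows of this length, 8.30% held the STAT motif, 40.7% the C/EBP motif, 11.2% the GATA motif, 3.20% the PU.1 motif and 4.51% the κB motif.

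Il1rl1 has 2 windows on the plus strand, the first at chr1:40429320-40429619 and the second at chr1:40439379-40439678. The gene-level counts do not say which start was used.
Il1rl1 first window: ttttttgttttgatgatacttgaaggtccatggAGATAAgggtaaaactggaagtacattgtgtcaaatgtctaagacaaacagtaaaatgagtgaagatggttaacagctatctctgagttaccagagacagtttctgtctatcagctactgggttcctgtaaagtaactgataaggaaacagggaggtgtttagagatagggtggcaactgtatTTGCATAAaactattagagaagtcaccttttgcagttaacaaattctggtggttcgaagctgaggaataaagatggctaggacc
Il1rl1 second window: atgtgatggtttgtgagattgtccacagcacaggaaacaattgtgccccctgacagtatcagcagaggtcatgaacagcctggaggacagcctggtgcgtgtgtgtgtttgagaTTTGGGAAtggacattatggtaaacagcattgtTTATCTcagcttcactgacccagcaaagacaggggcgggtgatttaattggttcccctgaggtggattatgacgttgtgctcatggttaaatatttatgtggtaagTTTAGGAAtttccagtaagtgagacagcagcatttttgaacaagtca
Both windows held 1 GATA motif, at -217 from the start in the first and at -103 in the second, where it reads TTATCT because it lies on the opposite strand. C/EBP motifs lay at -34 in the first window and at -136 and +3 in the second.

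The windows of Il1r2 and Il1rn, the genes of the decoy receptor and the antagonist, and of Il1a follow. The Il1r2 window (chr1:40085843-40086142, plus strand) held 1 STAT motif at -111. This window lies inside the span given for the gene below, chr1:40074079-40125231, and not at the start of that span. Il1rn has 3 windows, of which only the last (chr2:24345121-24345420, plus strand) is printed. It held C/EBP motifs at -161, -65 and -64, the latter pair overlapping. The first (chr2:24336610-24336909) held none of the motifs searched. The second (chr2:24345041-24345340) overlaps the last and held the same C/EBP motifs. The Il1a window (chr2:129309923-129310222, minus strand) held 1 C/EBP motif at -43.
Il1r2 window: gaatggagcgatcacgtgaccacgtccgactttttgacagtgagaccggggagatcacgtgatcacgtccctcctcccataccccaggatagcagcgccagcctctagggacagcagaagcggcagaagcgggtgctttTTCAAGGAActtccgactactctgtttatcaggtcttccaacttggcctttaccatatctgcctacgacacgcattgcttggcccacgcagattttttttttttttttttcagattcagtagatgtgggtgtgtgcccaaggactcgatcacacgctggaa
Il1rn last window: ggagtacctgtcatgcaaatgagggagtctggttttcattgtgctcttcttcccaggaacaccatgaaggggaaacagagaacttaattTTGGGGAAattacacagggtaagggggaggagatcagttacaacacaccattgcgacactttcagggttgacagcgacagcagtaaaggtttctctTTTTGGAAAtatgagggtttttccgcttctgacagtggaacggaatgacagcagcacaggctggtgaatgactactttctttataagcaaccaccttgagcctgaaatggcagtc
Il1a window: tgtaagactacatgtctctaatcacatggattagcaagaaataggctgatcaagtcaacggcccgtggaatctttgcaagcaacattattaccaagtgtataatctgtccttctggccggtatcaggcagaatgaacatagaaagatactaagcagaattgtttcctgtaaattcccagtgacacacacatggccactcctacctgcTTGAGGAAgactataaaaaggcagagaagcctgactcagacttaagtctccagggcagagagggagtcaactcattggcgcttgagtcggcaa
No motif was shared by the 3 genes that were higher. The C/EBP motif was present in windows of Il1rn and Il1rl1, which were higher, of Il1a, which was lower, and of Il1b, Il1r1 and Il18rap, which were not called. Among the members that were not called, the last Il18r1 window held 2 STAT motifs, at -219 and -152, the second Il1r1 window held 1 κB motif, and the Il18rap window held 1 PU.1 motif. The windows of Il18 and Il1rap held none of the 5 motifs.

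The ligand genes came first in the comparison. Il1a, which encodes a cytokine that acts as an alarm signal when cells are damaged, lies at chr2:129299610-129309972 on the minus strand. Its normalized counts (counts divided by a scaling factor for each library) were 209, 244 and 279 in sham replicates 1 to 3 and 104, 113 and 145 in EV replicates 1 to 3. Every EV library lay below every sham library, and the log2 fold change was -1.01 (SE 0.211, adjusted p = 0.00409). The call was lost without sham replicate 3 (adjusted p = 0.0177), EV replicate 1 (0.0195) or EV replicate 2 (0.0230). The span of Gm14023 overlaps that of Il1a on the opposite strand. Whether their exons overlap was not checked. The strandedness of the libraries is not given in the sources used here, so whether the genes share reads is not known.

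Il1b, which encodes the inflammasome-dependent form of IL-1, lies near Il1a at chr2:129364570-129371139, also on the minus strand. The Il1b values were 122, 104 and 158 in the sham libraries and 160, 101 and 149 in the EV libraries. The groups overlapped through their whole range, and the sign of the small difference turned with the scaling, being 0.094 with TMM scaling and -0.054 without it. An antisense gene, Il1bos, overlaps Il1b, with the same limit as for Il1a.

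Within a library, the ratio of Il1a to Il1b does not depend on the scaling between libraries. The log2 ratio was 0.78, 1.23 and 0.82 in the sham libraries and -0.62, 0.16 and -0.034 in the EV libraries. Il1a counts thus exceeded Il1b counts in each sham library and lay near or below them in the EV libraries. The mean difference was -1.11, from 0.94 ± 0.25 to -0.16 ± 0.41 (SD, n = 3 each), and the two-sided exact permutation test gave p = 0.1, which is the smallest p that 3 against 3 libraries allow.

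Il18 (chr9:50554827-50581840, plus strand), the gene of the third ligand, was close to the detection limit. The rounded counts were 17, 17 and 20 in the sham libraries and 0, 3 and 7 in the EV libraries, or 15.3, 20.8 and 24.3 against 0, 2.57 and 6.09 normalized counts. The EV libraries lay below the sham libraries. The log2 fold change of -2.72 had an SE of 0.963 and did not pass the test (adjusted p = 0.0512), so that a difference was not established at this depth. It ranged from -2.18 without EV replicate 1 to -3.78 without EV replicate 3. The genes Bco2 and Tex12 overlap Il18 on the opposite strand.

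Markers of macrophages were lower in the same libraries in which Il1a was lower. Of 10 macrophage markers, 8 were lower and 1 was higher, with a median log2 fold change of -2.52. Over all genes tested, 11.6% were lower and 12.1% higher. The 10 markers summed to between 56240 and 81485 normalized counts in the sham libraries and between 40220 and 45231 in the EV libraries. Csf1r, the receptor for the macrophage growth factor, had a log2 fold change of -1.31, the smallest change among the markers that were lower. Adgre1, which encodes F4/80 and is also made by mouse eosinophils, was higher, at 0.62. In the EV libraries Adgre1 had 32085 to 33532 normalized counts, most of the summed level. The part of these cells in the Il1a and Il18 values was not tested.

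**Figure D1:**
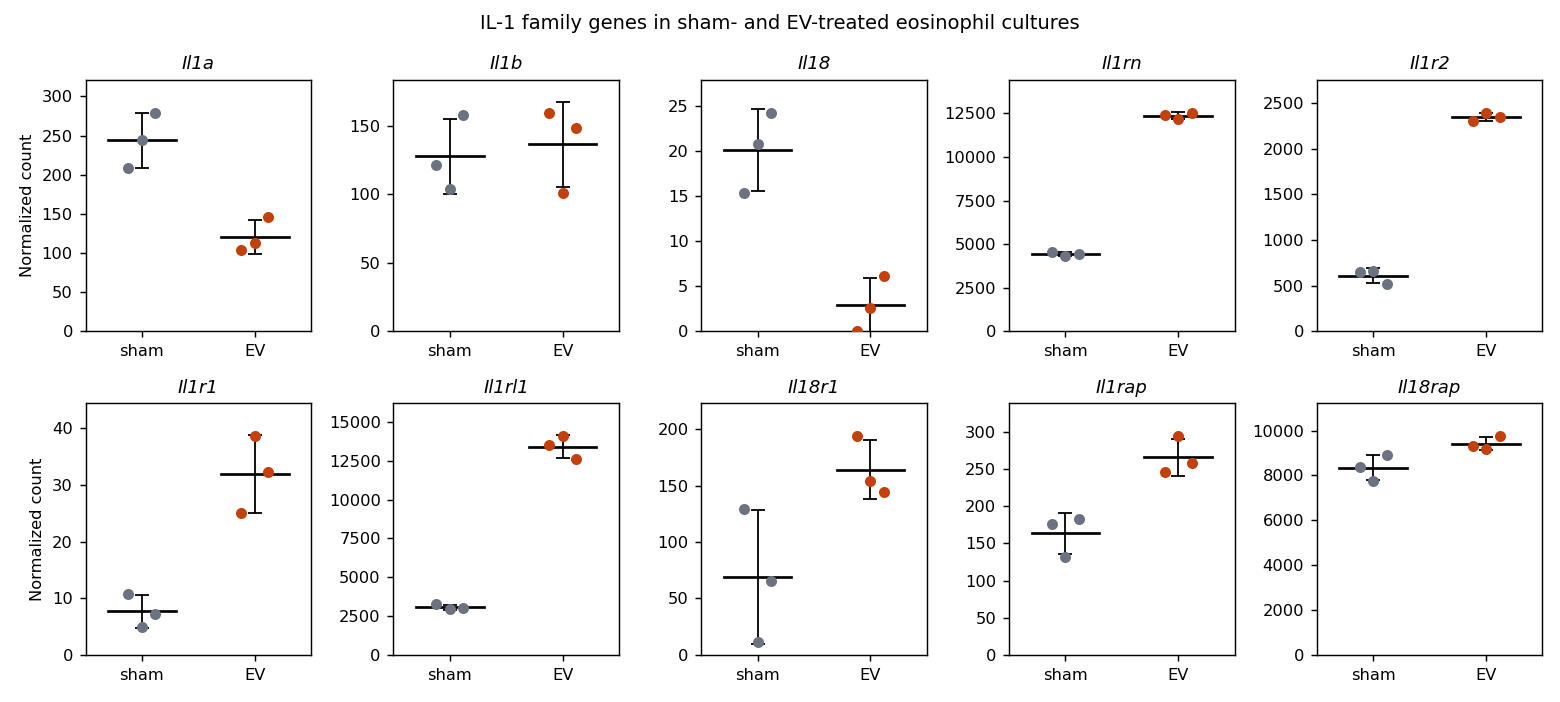
Normalized counts of the 10 IL-1 family genes in the 3 sham libraries (grey points) and the 3 EV libraries (orange points), each on its own linear axis from 0, with the group mean (long line) and SD (bar). Il1rn, Il1r2 and Il1rl1 separate widely, with EV values of at least 12175, 2307 and 12594 beside sham values of at most 4520, 658 and 3267, and Il1b overlaps.

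Among the 10 members, the antagonist and decoy receptor genes were higher in the EV group. Il1rn (chr2:24336853-24351494, plus strand), which encodes the secreted antagonist and its intracellular forms, had 4520, 4311 and 4419 normalized counts in the sham libraries and 12419, 12175 and 12555 in the EV libraries. The replicates lay within a narrow range in each group, and the difference was larger than the spread between them. The log2 fold change was 1.49 (SE 0.0534, adjusted p = 4.85e-08). Leaving out any 1 library gave values from 1.47 to 1.51, all called.

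Il1r2 (chr1:40074079-40125231, plus strand), the decoy receptor, had 654, 658 and 513 normalized counts in the sham libraries and 2307, 2397 and 2352 in the EV libraries. The lowest EV library exceeded the highest sham library severalfold. The log2 fold change was 1.95 (SE 0.101, adjusted p = 5.46e-07), with a range of 1.85 to 2.01 when any 1 library was left out. An antisense gene, Gm16894, and a same-strand gene, Gm37347, overlap Il1r2, so part of its reads may belong to them. Transcripts do not show how much antagonist or decoy receptor protein was made or released.

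The antagonist was also set against its competing ligand within each library. The log2 ratio of Il1rn to Il1b counts was 5.22, 5.37 and 4.81 in the sham libraries and 6.28, 6.91 and 6.40 in the EV libraries, with no overlap. The means were 5.13 ± 0.29 and 6.53 ± 0.34 (SD, n = 3 each), a difference of 1.40 or 2.64-fold, and the exact permutation test gave the smallest p it can give, 0.1. Without any 1 library the difference ranged from 1.21 to 1.52. The ratio of the decoy to the signaling receptor was not computed, because Il1r1 had under 10 counts in some libraries.

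Il1r1 (chr1:40225080-40317257, plus strand), the signaling receptor for both forms of IL-1, was barely detected. The rounded counts were 12, 4 and 6 in the sham libraries and 25, 45 and 37 in the EV libraries, or 10.8, 4.90 and 7.29 against 25.0, 38.6 and 32.2 normalized counts. All EV libraries lay above all sham libraries. The log2 fold change of 2.02 had an SE of 0.623 and was not called (adjusted p = 0.0291). It ranged from 1.79 to 2.37 when any 1 library was left out. Gm38070 overlaps Il1r1 on the same strand.

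Il1rl1 (chr1:40429570-40465415, plus strand), whose windows are printed above, encodes the IL-33 receptor ST2 in a membrane form and a soluble form that the gene-level counts do not separate. The Il1rl1 values were 3267, 2956 and 2989 in the sham libraries and 13497, 14074 and 12594 in the EV libraries. The difference exceeded the replicate spread of either group, with a log2 fold change of 2.12 (SE 0.0681, adjusted p = 2.87e-08). Of 13498 genes ordered by log2 fold change, it stood at place 187 from the top. The range without any 1 library was 2.09 to 2.18.

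The chain that ST2 shares with the IL-1 receptor did not pass the test. Il1rap (chr16:26581704-26730117, plus strand) had 177, 131 and 182 normalized counts in the sham libraries and 246, 294 and 258 in the EV libraries. The groups did not overlap, and the log2 fold change was 0.70 (SE 0.190, adjusted p = 0.0163), which is past 0.05 but not past the threshold of 0.01 used here. At an adjusted p under 0.05, Il1rap and Il1r1 would bring the members that were higher to 5 of 10, where 2362 of all 13498 genes tested were higher. Gm20319 overlaps Il1rap on the opposite strand.

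The chains of the IL-18 receptor differed from each other in level and in spread. Il18rap (chr1:40515362-40551705, plus strand), the accessory chain, had 8371, 7765 and 8888 normalized counts in the sham libraries and 9328, 9167 and 9746 in the EV libraries. The EV values lay just above the sham values, by 0.17 on the log2 scale (SE 0.0636, adjusted p = 0.0569), and without TMM scaling by 0.026 (adjusted p = 0.763). Il18r1 (chr1:40465552-40500854, plus strand), the ligand-binding chain, had 130, 11.0 and 65.6 normalized counts in the sham libraries and 194, 154 and 144 in the EV libraries. Sham replicate 2 stood far below the other sham libraries, and with this spread the log2 fold change of 1.23 (SE 0.587, adjusted p = 0.135) was not called. It ranged from 0.74 to 2.10 when any 1 library was left out.

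**Figure D2:**
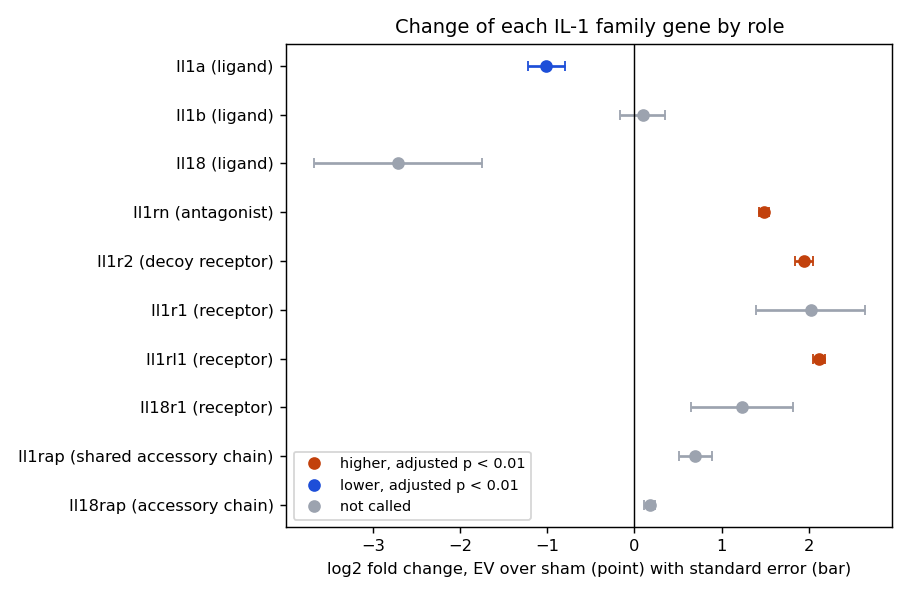
Log2 fold change of each IL-1 family gene, EV over sham, grouped by role, with the standard error as a bar, and orange, blue and grey for genes that were higher, lower or not called at an adjusted p under 0.01. Il1rn, Il1r2 and Il1rl1 lie between 1.49 and 2.12 with short bars, whereas Il18, Il1r1 and Il18r1 have standard errors of 0.963, 0.623 and 0.587.

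Mast cell and basophil markers, which matter for receptors that these cells also carry, were higher in the EV group. Of the 9 of 11 markers that were tested, 7 were higher and the others were not called, with a median log2 fold change of 1.30. Among all genes tested, 12.1% were higher. The markers summed to between 7669 and 9502 normalized counts in the sham libraries and between 17117 and 20119 in the EV libraries. Mcpt8, a basophil protease, had 141, 23.3 and 74.1 normalized counts in the sham libraries and 506, 425 and 413 in the EV libraries. Its order among the sham libraries was that of Il18r1, lowest in sham replicate 2. The list was split, with some markers lowest in sham replicate 2 and others in sham replicate 3. Cpa3, a protease of mast cells and basophils, had a log2 fold change of 1.30. Il1rl1 had a higher log2 fold change, 2.12, than Cpa3, and a lower one than Mcpt8, at 2.46, and the part of these cells in the Il1rl1 and Il18r1 values was not tested.

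**Figure D3:**
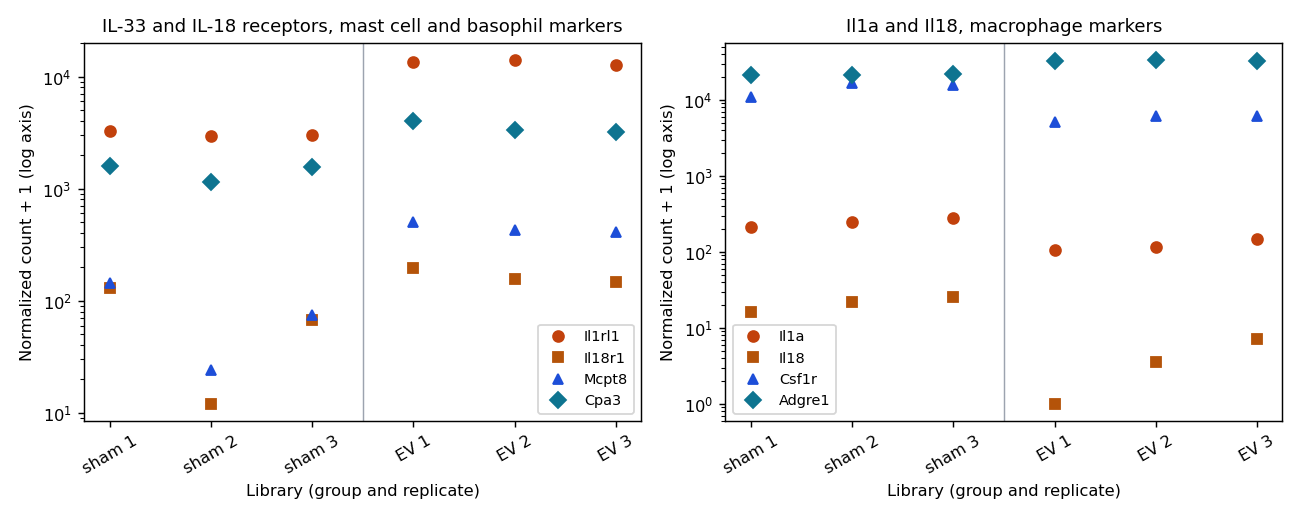
Normalized counts plus 1 on a log axis in each of the 6 libraries, with Il1rl1 and Il18r1 beside the basophil and mast cell genes Mcpt8 and Cpa3 (left) and Il1a and Il18 beside the macrophage markers Csf1r and Adgre1 (right). Il18r1 and Mcpt8 are both lowest in sham replicate 2, at 11.0 and 23.3, which not all mast cell and basophil markers share. Csf1r falls with Il1a while Adgre1 does not.

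The eosinophil identity of the cultures was checked with 10 markers, which summed to between 885306 and 1118880 normalized counts in the sham libraries and between 1250256 and 1408556 in the EV libraries. Of these, 7 were higher, beside 12.1% of all genes tested. Among the 7 was Siglecf, a surface lectin of eosinophils, at a log2 fold change of 0.85. Neutrophil markers went both ways, with 2 of the 9 tested higher, 5 lower and a median log2 fold change of -0.90. Over all genes tested, 11.6% were lower. Ly6g had the largest rise of this list, at 2.65. The summed markers ran from 16602 to 19034 in the sham group and from 17526 to 20944 in the EV group. T cell markers, of interest because the EVs came from T cells, summed to between 42.5 and 138 in the sham group and between 38.0 and 75.4 in the EV group, and Cd3e was not among the genes listed. Dendritic cell markers summed to between 99.3 and 144 and between 91.4 and 130. Library totals ran from 23697620 to 37874426 counts.

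Levels of different genes were compared as normalized counts per kilobase of merged exons in the GENCODE vM21 annotation. In the sham group the order ran from Il18rap (1235 ± 83.3, SD, n = 3) through Il1rn (798 ± 18.8), Il1rl1 (445 ± 24.8) and Il1r2 (319 ± 43.4) to Il1a (124 ± 17.8) and Il1b (67.1 ± 14.4), and the ranges of these 6 genes did not overlap. Il18 (19.5 per kb), Il1rap (14.4 per kb) and Il18r1 (14.3 per kb) overlapped, and Il1r1 was last at 1.21 per kb. In the EV group Il1rn was first (2237 ± 34.8), followed by Il1rl1 (1942 ± 108), Il18rap (1394 ± 44.2) and Il1r2 (1233 ± 23.5), again without overlap. Il1b (71.6 per kb) and Il1a (61.2 per kb) overlapped, as did the last genes of the order, Il1r1 (5.02 per kb) and Il18 (2.80 per kb), while Il18r1 (34.1 per kb) and Il1rap (23.4 per kb) lay between them. Thus Il18rap made up 40.7% of the summed per-kilobase level of the 10 genes in the sham group and 19.9% in the EV group, while Il1rl1 made up 14.7% and 27.7%. The exon length stands in for the length of the transcripts used, which the counts do not give. At most 1.20% of the 31-base words of a member's transcripts occurred in transcripts of another gene, the highest share being that of Il18r1. Words were compared on the transcript strand only, so this share does not cover the overlapping genes on the opposite strand.

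Of the 7 receptor-chain genes among the members and the related gene Il1rl2, 6 lie in a row on chromosome 1. The row spans 477.6 kb at chr1:40074079-40551705, with all genes on the plus strand in the order Il1r2, Il1r1, Il1rl2, Il1rl1, Il18r1 and Il18rap. The log2 fold changes in this order were 1.95, 2.02, 0.86, 2.12, 1.23 and 0.17. All 6 were above 0, and only Il1r2 and Il1rl1 were called, with the uncalled Il1r1 and Il1rl2 between them. Over all genes tested the median was -0.014, and 12.1% were called higher. Without TMM scaling Il18rap stood at 0.026. The neighbours Il1rl1 and Il18r1 are separated by 136 bases, and reads that run past the end of one gene could not be told from those of the next.

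**Figure D4:**
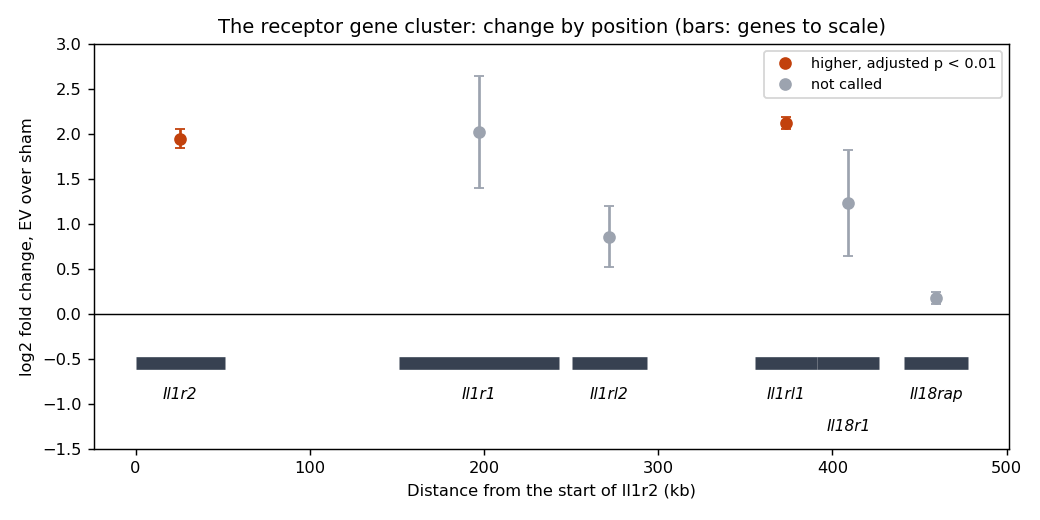
Log2 fold change, EV over sham, of the 6 receptor genes on chromosome 1 against their distance in kb from the start of Il1r2, with the standard error as a bar and each gene drawn to scale as a dark bar beneath. Values at the Il18rap end reach 0.17, whereas Il1r2 and Il1rl1 reach 1.95 and 2.12.

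Of 11 other IL-1 family genes, 4 were listed in the count table, and edgeR called 0 of them, with 1 at an unadjusted p under 0.05. DESeq2 and limma on the deposited normalized counts, run on the same 6 libraries, also called 0. Over all genes tested, edgeR called 12.1% higher and 11.6% lower, so that 0 of 4 genes says little about the list. Il1rl2, the IL-36 receptor, had 60.4, 52.7 and 126 normalized counts in the sham libraries and 145, 153 and 134 in the EV libraries, and its log2 fold change of 0.86 missed the threshold (adjusted p = 0.0768). Without sham replicate 3, 1 gene of this list was called. The log2 fold changes of the ligand Il36g, the IL-18 binding protein Il18bp and the inhibitory receptor Sigirr were 0.21, 0.022 and -0.21. Il33, the gene of the ligand of ST2, was not listed.

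Of 21 genes of the MyD88 pathway, which relays the signal from these receptors, 3 were higher, 1 was lower and 17 were not called, with a median log2 fold change of 0.13. Over all genes tested, 12.1% were higher and 11.6% lower, with a median of -0.014. Tab2 and Tab3, which bind ubiquitin chains for the kinase TAK1, had log2 fold changes of 0.41 and 0.44, and Nfkb1, the precursor of the p50 subunit of NF-κB, 0.29. Ikbkg, the regulatory subunit of the IκB kinase, was lower, at -0.33. Of the 4 calls, 1 was left without any one of the EV libraries. Myd88, the adaptor of the receptors, was singled out once its value was known, and at 0.38 (adjusted p = 0.0102) lay just outside the threshold.

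Of 20 genes that process or release IL-1, 19 were tested, 3 were higher and 4 were lower, with a median log2 fold change of 0.072. These counts stand beside 12.1% higher and 11.6% lower of all genes tested, and nothing particular to the list is read from them. The inflammasome sensors Nlrc4 and Nlrp3 were lower, at -1.20 and -0.57, as were the adaptor Pycard, at -0.36, and Ninj1, which ruptures the membrane of dying cells, at -0.68. Capn2 and Capns1, subunits of the calpain that cleaves the IL-1α precursor, were higher, at 0.89 and 0.38, and so was Rhbdf2, which traffics the sheddase ADAM17, at 0.73. Casp1, which cleaves the IL-1β and IL-18 precursors, was singled out once its value was known, and stood at -0.51 (adjusted p = 0.0131), just outside the threshold. The count of 7 fell to 4 without EV replicate 2.

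Of 30 genes known to respond to IL-1 through NF-κB, 26 were tested. In the EV group 8 were higher and 5 lower, with a median of -0.015, where 12.1% and 11.6% of all genes tested were called in these directions and the median was -0.014. The cytokine gene Il6 had 80.2, 60.1 and 82.6 normalized counts in the sham libraries and 722, 641 and 523 in the EV libraries, a log2 fold change of 3.07. Ptgs2, the inducible cyclooxygenase, Ccl2, a monocyte chemokine, and Tnf, the tumor necrosis factor gene, were higher by 2.25, 1.97 and 0.93 on the log2 scale. Cxcl3, a neutrophil chemokine, and Lcn2, which encodes an iron-scavenging protein, were lower, at -2.07 and -1.87. Many of these genes respond to other stimuli too, and the list does not separate IL-1 signaling from them.

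**Figure D5:**
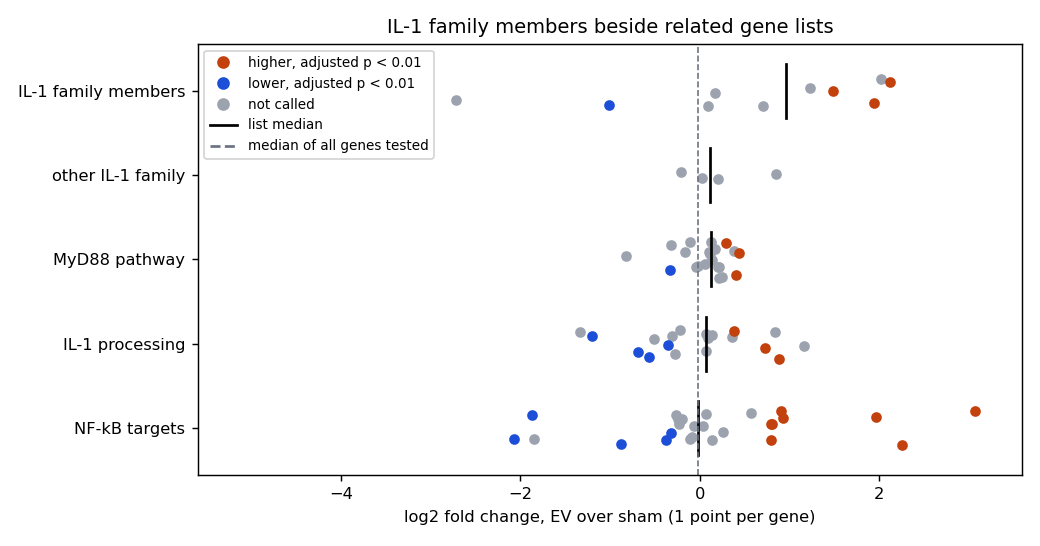
Log2 fold change, EV over sham, of the IL-1 family members and 4 related gene lists, with 1 point per gene tested, orange and blue for genes that were higher or lower at an adjusted p under 0.01, the list median as a black line and the median of all genes as a dashed line. The member median of 0.97 lies to the right of the 4 list medians, which lie between -0.015 and 0.13.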

How the data were processed

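Polyadenylated RNA from 6 cultures was sequenced. Per the labels, reads were checked with FastQC, trimmed with Cutadapt, quantified with Salmon against mm10 and compared with DESeq2. Versions, annotation and strandedness are not given in the sources used here. For 16254 genes the authors deposited estimated counts, not always whole, and normalized counts, a signal equal to the rounded count plus 1 divided by a size factor. The authors' comparison table (14670 genes, with fold changes and p-values) was not used.

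Estimated counts were rounded and tested with edgeR 4.0.16 in R 4.3.3 (TMM scaling, filterByExpr, quasi-likelihood test, Benjamini-Hochberg adjustment over 13498 genes), and genes were called at an adjusted p under 0.01. The study also asked for a log2 change of 1 or more in either direction, which served here as an alternative. Each SE was obtained as the log2 fold change over √F. The script was tested on simulated data. Alternatives were other scalings, no filter, DESeq2 1.42.0, limma 3.58.1 on the deposited normalized counts (log2, pseudocount 1), 2 other thresholds, a replicate block and leaving out each library. Ratios used only genes with at least 10 counts in every library.

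The members and lists were chosen with earlier results of these data known. Named were every member, the other family genes listed, and up to 6 genes called per list with the largest change and a mean over 20 normalized counts. Pycard, Myd88 and Casp1 are additions made once their values were known. Of the markers, only Adgre1, Csf1r, Mcpt8, Cpa3, Cd3e, Ly6g and Siglecf were named. Coordinates are from GENCODE vM21 (GRCm38, the sequence of mm10), and start-site windows are from RefSeq.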

Additional observations from a re-analysis of the deposited data

How the results depend on the processing

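Of 130 values of the 10 members under 13 alternatives, 123 kept their direction and their side of the threshold. Il1rn, Il1r2 and Il1rl1 were called under every alternative. Il1a kept its direction but lost its call without sham replicate 3, EV replicate 1 or EV replicate 2, so that the members called lower ranged from 0 to 1 when 1 library was left out. Il1b reversed to a log2 fold change of -0.054 without TMM, and ranged from -0.031 to 0.28 when 1 library was left out, below 0 without sham replicate 2 (-0.031) or EV replicate 1 (-0.026). Without TMM the median log2 fold change of all genes moved from -0.014 to -0.16, and 1036 genes were called higher in place of 1632. Relative to that median, Il1b lay above it in both fits. With a log2 fold change of at least 1 required, 419 genes were higher and 857 lower, with 0 genes of the MyD88 pathway, 1 of IL-1 processing and 5 NF-κB targets called. At an adjusted p under 0.05, 2362 genes were higher and 2478 lower, and 5 members were higher. With that threshold 9 MyD88 pathway genes and 11 IL-1 processing genes were called. When 1 library was left out, genes called higher ranged from 1071 to 1833 and genes called lower from 1018 to 1698, MyD88 pathway genes called from 1 to 4, IL-1 processing genes from 4 to 9 and other IL-1 family genes from 0 to 1. These fits hold fewer libraries, and a group of 2 shares the spread estimated over both groups.

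The replicate numbers are shared by the groups in the labels, but the deviations of same-numbered libraries correlated by 0.11, 0.083 and 0.042, so that the numbers were not taken as pairs. With the number as a replicate block, Il18r1 reached a log2 fold change of 1.60 (adjusted p = 0.00986, edgeR) and passed the threshold, and no other member's call changed. Every library correlated best with the library of its own number in the other group, a hint from the data and not from the design. Depth limits Il18 and Il1r1, whose lowest libraries held 0 and 4 counts.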
